A study of Mus musculus with 6 samples.

Results

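Integrins are the receptors by which cells hold their surrounding matrix, and laminins are the basement membrane proteins that several integrins bind. The genes described are the 37 whose symbols, among 55367 in the deposited table, name an integrin alpha subunit, an integrin beta subunit or a laminin chain: 18 alpha subunits, 8 beta subunits and 11 laminin chains. They were measured by RNA sequencing in LLC cells, a wild-type mouse line from a Lewis lung carcinoma grown in medium with serum, after 46 h with the solvent DMSO (3 libraries) or with 5 µM STM2457 (3 libraries). STM2457 is a small molecule that blocks the catalytic activity of METTL3, which places N6-methyladenosine on RNA. The comparison asks which of these transcripts differ between inhibitor and solvent.

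Each integrin is a dimer of an alpha and a beta subunit, and the alpha subunit largely sets the ligand. Alpha 3, alpha 6 and alpha 7 with beta 1 bind laminins, alpha 5 with beta 1 binds fibronectin through its Arg-Gly-Asp (RGD) sequence, and alpha V pairs with several beta subunits to bind vitronectin, fibronectin and latent TGF-beta. The beta tail in the cytoplasm binds talin and kindlin, which switch the receptor on and tie it to actin. A laminin is a trimer of an alpha, a beta and a gamma chain, assembled before secretion. Integrin use is much studied in carcinoma cells because attachment and spread depend on it.

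Levels are given as reads in each library, recovered from the deposited log2 values, or as normalised reads, which are reads over the size factor of that library. Fold changes are STM2457 over DMSO in reads, and a gene counts as risen or fallen when its adjusted p is under 0.05 by limma on the deposited values, adjusted over all 12618 genes with a mean of at least 10 reads. Reads assigned to genes numbered 17671697 to 17917204 per library. A gene without reads could still hold up to 3 by counting error alone, or 0.167 to 0.170 CPM. The target's own transcript, Mettl3, stood at 537 ± 66.0 normalised reads with solvent and 488 ± 32.4 with inhibitor (n = 3, SD; adjusted p by limma = 0.15). An inhibitor of the enzyme's activity need not change its transcript, so this does not test the labels. No label states whether replicate libraries are separate cultures. The p-values therefore reflect only how far these libraries scatter, and that scatter may be technical. In a bulk sample, fewer cells with a transcript and less transcript per cell cannot be told apart.

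The label gives lung as the tissue. Of 10 lung epithelial markers, Nkx2-1, Sftpa1, Epcam and Cdh1 were listed at 0 in every library, and the list summed to 20.9 to 35.2 normalised reads. Most of that sum was Ager, at 15.9 to 24.1 normalised reads per library (limma adjusted p = 0.91). The 6 mesenchymal markers were all present and tested, and 2 rose and 2 fell (median fold 1.01), beside 30.7% and 25.7% of all tested genes. Vim fell from 52926 ± 1299 normalised reads with solvent to 46168 ± 607 with inhibitor (SD, n = 3), and Snai2 fell to 0.824 of the DMSO level. Cdh2 rose 1.32-fold and Twist1 1.15-fold. Of the 6 tested fibroblast markers 0 rose and 3 fell (median fold 0.755), again beside 30.7% and 25.7% of all tested genes. Col3a1 fell to 0.75, Col1a2 to 0.465 and Lum to 0.289 of the DMSO level, with limma adjusted p-values of 4e-09, 3.5e-08 and 0.00042. That list summed to 25219 to 26819 normalised reads in DMSO and 18519 to 20473 after STM2457, nearly all of it Col3a1, and Thy1 was at 0. Of 12 leukocyte markers, Adgre1, Tyrobp, Cd3e, Ms4a1 and Spi1 were at 0 and Ptprc had a mean of 0.335 normalised reads in DMSO. That list summed to 105.2 to 119.2 normalised reads in DMSO and 100.1 to 125.2 after STM2457, nearly all of it Cd68.

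Promoter sequence is shown for 4 of the well-expressed integrin genes that were called and that the RefSeq table holds: Itga5, Itgb5 and Itgb7, which rose, and Itga3, which fell. Itgav, which also rose, is held there with 1 GC box and 24 CpG dinucleotides and is not shown. Itga7, which also fell, has no entry there. Each stretch spans the annotated start and mostly lies before it, 5′ to 3′ on the gene's own strand, taken from RefSeq on build GRCm38.p6. Capitals mark GC boxes (GGGCGG on either strand), the only motif of those searched that occurs in these 4 stretches. Itga5 lies on the minus strand (chr15:103366742-103367041), Itgb5 on the plus strand (chr16:33829415-33829714), Itgb7 on the minus strand (chr15:102231886-102232185) and Itga3 on the minus strand (chr11:95076665-95076964, the upstream of its 2 annotated starts).
Itga5: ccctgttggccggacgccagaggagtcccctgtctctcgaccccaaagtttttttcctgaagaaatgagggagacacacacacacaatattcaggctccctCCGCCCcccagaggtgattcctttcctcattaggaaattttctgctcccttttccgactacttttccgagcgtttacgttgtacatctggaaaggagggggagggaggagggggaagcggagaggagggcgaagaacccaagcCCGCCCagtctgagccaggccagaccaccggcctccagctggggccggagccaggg
Itgb5: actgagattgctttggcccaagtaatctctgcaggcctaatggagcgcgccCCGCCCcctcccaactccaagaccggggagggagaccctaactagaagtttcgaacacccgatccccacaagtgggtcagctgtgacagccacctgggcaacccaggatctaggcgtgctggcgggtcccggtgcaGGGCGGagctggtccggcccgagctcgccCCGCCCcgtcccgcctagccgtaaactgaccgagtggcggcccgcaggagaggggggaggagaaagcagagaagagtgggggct
Itgb7: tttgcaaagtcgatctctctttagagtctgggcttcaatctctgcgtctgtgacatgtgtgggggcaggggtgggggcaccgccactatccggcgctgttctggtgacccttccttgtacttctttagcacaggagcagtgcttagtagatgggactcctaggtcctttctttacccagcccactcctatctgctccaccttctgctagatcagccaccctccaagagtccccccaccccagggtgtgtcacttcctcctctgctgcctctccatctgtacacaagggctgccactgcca
Itga3: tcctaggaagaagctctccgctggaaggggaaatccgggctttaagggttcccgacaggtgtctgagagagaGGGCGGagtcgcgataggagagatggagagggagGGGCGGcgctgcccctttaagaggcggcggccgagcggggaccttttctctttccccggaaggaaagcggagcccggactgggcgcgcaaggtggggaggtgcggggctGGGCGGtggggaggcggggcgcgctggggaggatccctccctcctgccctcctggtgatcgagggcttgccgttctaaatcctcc
Itga5 holds 2 GC boxes, Itgb5 holds 3 and the Itga3 stretch holds 3, while the letters do not occur in the Itgb7 window. Over all 32851 promoters of this length, 35.7% hold at least 1 GC box, and so do 11 of the 23 member genes for which RefSeq gave a promoter. The 4 stretches hold 13, 20, 5 and 24 CpG dinucleotides in the order shown, against a median of 7 over all promoters. The other motifs searched on both strands were the TATA box (TATAAA, in 0 of 23 member genes and 13.6% of all promoters), the AP-1 site (TGANTCA, 3 and 7.8%), the CRE (TGACGTCA, 0 and 1.8%), the E-box (CACGTG, 0 and 7.2%) and the CCAAT box (CCAAT, 4 and 37.4%). No match overlaps another in the stretches shown. The AP-1 matches are in Itga9, Itgax and the downstream Itga3 start. GC boxes thus occur in this window both in genes that rose (Itga5, Itgb5) and in a gene that fell (Itga3).

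Of the 37 genes, 5 were listed at 0 in all 6 libraries, 11 had reads but a mean under 10, and 21 were tested. Among the 21, 4 rose (Itga5, Itgb5, Itgb7 and Itgav) and 6 fell (Itga3, Itga7, Itga10, Itga2b, Itgax and Lama5), so 47.6% were called where 56.3% of all tested genes were. By direction, 30.7% of all tested genes were called higher and 25.7% lower. Groups did not overlap in 11 of the 21, where 61.8% of all tested genes did not overlap. The median tested member had a log2 fold of -0.09 in reads, beside 0.01 over all tested genes. The changes were mostly small: 8 of the 10 called members changed under 1.5-fold, as did 79.5% of all called genes. Of the called genes, 9 were among the 16 tested integrin genes and 1 among the 5 tested laminin chains. The difference between those shares was not tested.

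**Figure D1:**
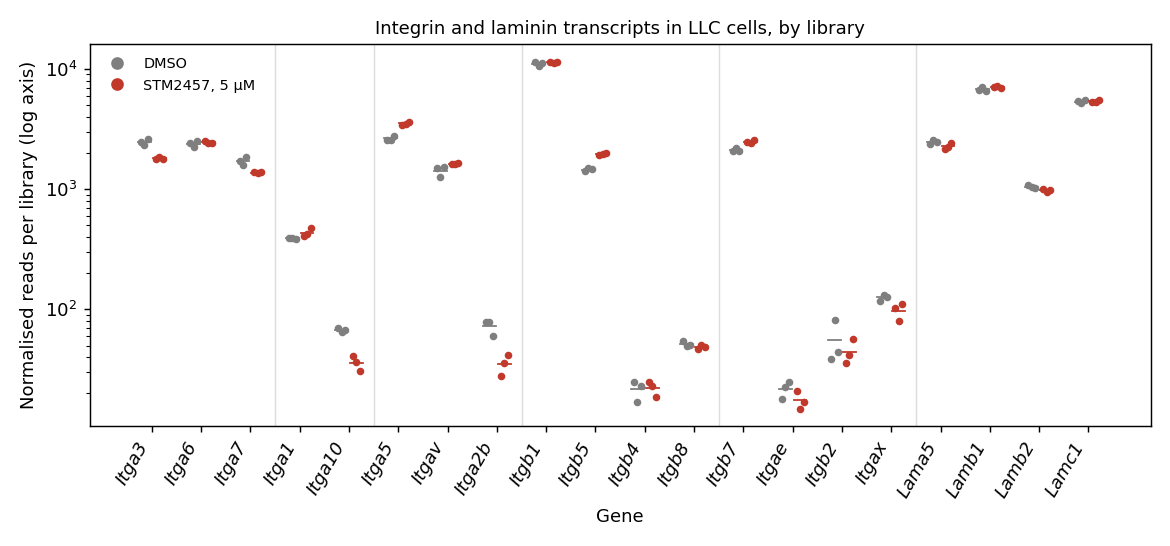
Normalised reads per library (log axis) of 20 of the 21 tested genes, with 3 DMSO libraries in grey, 3 STM2457 libraries in red and a line at each group's mean. From left to right are laminin-binding, collagen-binding and RGD-binding alpha subunits, beta subunits, leukocyte subunits and laminin chains, and the red points of Itga3 and Itga7 lie below the grey ones while those of Itga5 and Itgb5 lie above.

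The alpha subunits that bind laminin did not move as a block. Itga3, whose protein pairs with beta 1 as a receptor for laminins with an alpha 5 chain, had 2446, 2369 and 2599 reads in DMSO and 1812, 1848 and 1801 after STM2457. All 3 treated libraries lay below all 3 solvent libraries. Normalised reads fell from 2471 ± 131 to 1807 ± 26.7 (SD, n = 3), to 0.732 of the DMSO level (95% interval 0.689 to 0.778, limma adjusted p = 3.1e-09). Itga7, the laminin receptor subunit best known from muscle, had 1709, 1608 and 1847 reads in DMSO and 1398, 1360 and 1400 after STM2457, again without overlap. It fell to 0.801 of the DMSO level (95% interval 0.748 to 0.858, limma adjusted p = 4.9e-06). Itga6, the third of these receptors, had 2415, 2244 and 2497 reads in DMSO and 2553, 2433 and 2460 after STM2457, and the groups overlapped. Its fold was 1.03 with an interval of 0.973 to 1.10 (limma adjusted p = 0.36), so a fall as large as that of Itga3 lies outside it.

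Of the 3 tested RGD-binding subunits 2 rose and 1 fell. Itga5, the alpha subunit of the main fibronectin receptor, had 2584, 2592 and 2755 reads in DMSO and 3464, 3505 and 3671 after STM2457. The lowest treated library stood well above the highest solvent library. Normalised reads rose from 2643 ± 108 to 3521 ± 104 (SD, n = 3), by 1.33-fold (95% interval 1.26 to 1.41, limma adjusted p = 4.4e-09). Itgav, the alpha subunit of the vitronectin receptors, had 1497, 1265 and 1526 reads in DMSO and 1644, 1627 and 1659 after STM2457. It rose 1.15-fold (95% interval 1.05 to 1.25, limma adjusted p = 0.0091), and DMSO replicate 2 was its lowest library. Without that library the log2 difference on the deposited scale dropped from 0.11 to 0.06 (limma adjusted p = 0.038). Exons of Itgav share 5.9% of their bases with a transcript on the other strand, Gm13684, and whether the counting used strand is not stated in the sources used here.

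Itga2b, the platelet fibrinogen receptor subunit that pairs with beta 3, was scarce. It had 78, 79 and 60 reads in DMSO and 28, 36 and 42 after STM2457, with no overlap. The fall, to 0.486 of the DMSO level (95% interval 0.371 to 0.635, limma adjusted p = 1.2e-05), was the largest in reads of any tested member. Its interval overlaps that of Itga10 (0.417 to 0.688). On the deposited scale the log2 difference was -0.206 for Itga2b and -0.257 for Itga3. Itgb3, the partner gene of Itga2b, had 5, 4 and 8 reads in DMSO and 12, 9 and 10 after STM2457 and was under the level for testing. Of 7 platelet and megakaryocyte markers, Gp9, Gp1bb and Gp6 were at 0 in every library, and the list summed to 28.1 to 47.1 normalised reads in DMSO and 12.9 to 22.8 after STM2457. Most of that sum was the chemokine gene Ppbp, which fell to 0.531 (limma adjusted p = 0.0034), and its part in the result for Itga2b was not tested. Itga8 had 1 read in all.

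Collagen-binding subunits were present at moderate or low levels. Itga1 had 391, 398 and 387 reads in DMSO and 411, 424 and 483 after STM2457. The groups did not overlap, but the difference did not pass the test (1.11-fold, 95% interval 1.01 to 1.23, limma adjusted p = 0.064). Itga10, a collagen receptor subunit best known from cartilage, had 70, 65 and 67 reads in DMSO and 41, 37 and 31 after STM2457. It fell to 0.536 of the DMSO level (95% interval 0.417 to 0.688, limma adjusted p = 2.9e-05). Its exons share 33.5% of their bases with Gm42957 on the same strand, which had 1 read, and no label states how reads in shared exons were assigned. Itga2 had 0 to 2 reads per library and Itga11 had 0 to 5.

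**Figure D2:**
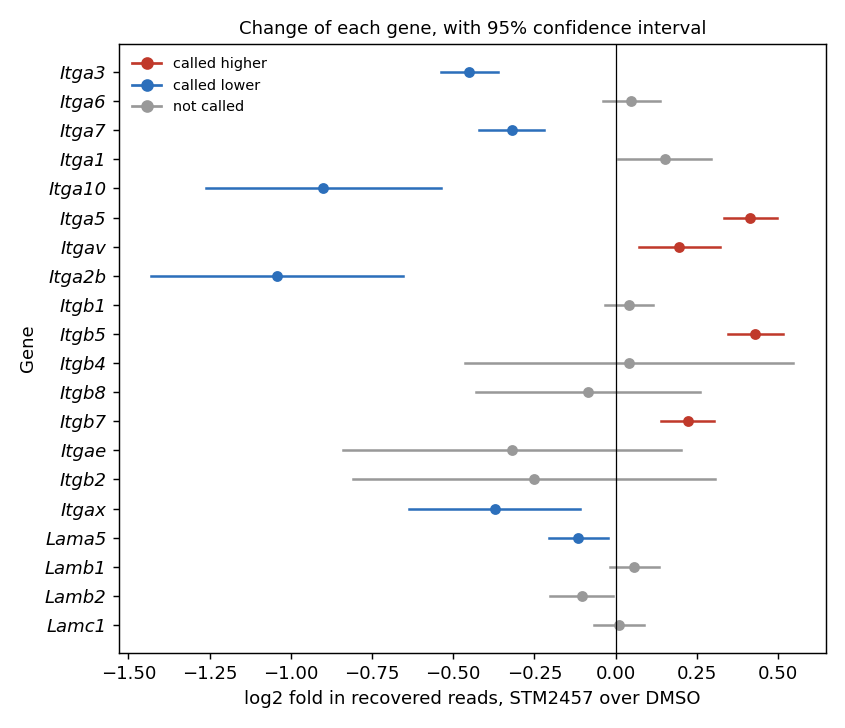
Log2 fold in recovered reads (STM2457 over DMSO, limma-voom) of 20 of the 21 tested genes, with the 95% confidence interval as a bar and colour for the call by limma on the deposited values. Itga5 and Itgb5 lie furthest to the right, and Itga2b and Itga10, at few reads, lie furthest to the left with wide intervals.

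Itgb1, the common partner, did not pass the test among the beta subunits. It pairs with most of the alpha subunits named above, was the most abundant member per kilobase of exon, and had 11414, 10617 and 11084 reads in DMSO and 11433, 11257 and 11601 after STM2457. The groups overlapped, and the fold was 1.03 (95% interval 0.977 to 1.08, limma adjusted p = 0.37). Itgb5, which pairs with alpha V to bind vitronectin, had 1409, 1512 and 1453 reads in DMSO and 1947, 1979 and 2009 after STM2457. Normalised reads rose from 1457 ± 45 to 1964 ± 28.5 (SD, n = 3), by 1.35-fold (95% interval 1.27 to 1.43, limma adjusted p = 4.1e-09), with a wide gap between the groups. Vtn, the gene of the ligand vitronectin, had 1 read in all, in DMSO replicate 2.

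Itgb4, the hemidesmosome subunit that pairs with alpha 6, had 17 to 25 reads per library over both groups, and the interval of its fold ran from 0.726 to 1.46. Itgb8, which pairs with alpha V to release TGF-beta, had 47 to 55 reads, with an interval of 0.742 to 1.2. Changes within these intervals were not detectable at this depth. Itgb6 had 1 read in all.

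Leukocyte integrin genes were not uniformly absent. Itgb7, whose protein is known from gut-homing lymphocytes as the partner of alpha 4 or alpha E, had 2091, 2226 and 2082 reads in DMSO and 2479, 2454 and 2580 after STM2457. No treated library fell within the solvent range. Normalised reads rose from 2132 ± 67.6 to 2486 ± 62.2 (SD, n = 3), by 1.17-fold (95% interval 1.10 to 1.23, limma adjusted p = 4.8e-05). The exons of Itgb7 overlap no other annotated gene. Of its partners, Itga4 was listed at 0 in every library, and Itgae had 18, 23 and 25 reads in DMSO and 21, 15 and 17 after STM2457 (limma adjusted p = 0.29). Per kilobase of exon, the transcript of Itgb7 thus stood 138 to 192 times above that of Itgae in DMSO libraries and 195 to 271 times above it after STM2457. Over the 12 leukocyte markers, 5 were at 0 and 7 had reads. Besides Cd68, at 101 ± 10.4 normalised reads with solvent and 96.6 ± 11.7 with inhibitor (SD, n = 3), Lyz2 had 3.01 to 11.9 normalised reads per library, Fcer1g 1.98 to 4.96, and each of the others at most 1.01. Their part in the result for Itgb7 was not tested.

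Itgax, a subunit of a complement receptor of dendritic cells and macrophages, had 118, 133 and 127 reads in DMSO and 104, 81 and 111 after STM2457. It fell to 0.772 of the DMSO level (95% interval 0.643 to 0.928, limma adjusted p = 0.012). Its lowest library was STM2457 replicate 2, and leaving that one out ended the call (adjusted p = 0.12, log2 difference -0.08 on the deposited scale in place of -0.11). Itgb2, the beta subunit that Itgax needs, had 39, 83 and 44 reads in DMSO and 36, 42 and 57 after STM2457, with DMSO replicate 2 highest. The groups overlapped (fold interval 0.571 to 1.24, limma adjusted p = 0.46). Itgal had 3 to 6 reads per library, Itgad had 1 read in all, and Itgam was listed at 0. The last value is uncertain, since 68.7% of the exon bases of Itgam are shared on the same strand with Gm49368, itself listed at 0. Itga9, a tenascin receptor subunit, was also listed at 0.

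Levels of different genes can be compared per kilobase of exon, using exon lengths from GENCODE M21 on GRCm38. Itga5 held 32.3 ± 0.688% of the summed normalised reads per kilobase of the alpha subunits in DMSO and 42.3 ± 0.775% after STM2457 (SD, n = 3). That is a difference of 9.97 percentage points. Itga3 held 26.1 ± 0.107% and then 18.8 ± 0.495%, and Itga7 held 12.8 ± 0.307% and then 10.1 ± 0.123%. For Itga6 the shares were 15.9 ± 0.284% and 16.2 ± 0.492%, and for Itgav 8.01 ± 0.535% and 9.0 ± 0.0559%. In DMSO the order was Itga5, Itga3, Itga6, Itga7 and Itgav, and the shares of neighbours in that order did not overlap between their libraries. After STM2457 the order was the same, with Itga3 at 18.3 to 19.3% just above Itga6 at 15.8 to 16.7%. The place of Itga6 rests on the length used: per kilobase of the longest coding transcript it held 23.0 ± 0.324% in DMSO and 23.7 ± 0.635% after STM2457, above Itga3 at 21.1 ± 0.148% and 15.4 ± 0.403% (SD, n = 3).

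The ratio of Itga5 to Itga3 per kilobase was 1.22, 1.27 and 1.23 in DMSO and 2.21, 2.2 and 2.36 after STM2457. The laminin-binding sum of Itga3, Itga6 and Itga7 over the sum of Itga5 and Itgav was 1.36 ± 0.0166 in DMSO and 0.878 ± 0.0288 after STM2457 (SD, n = 3). Which sum was larger after STM2457 rests on the length used: per kilobase of the longest coding transcript the ratio was 1.85 ± 0.019 and then 1.24 ± 0.0404, and without division by length 1.61 ± 0.0062 and then 1.1 ± 0.0331 (SD, n = 3). The ratio was lower in every treated library on each of the 3 scales. Itgb1 over the sum of its possible alpha partners was 1.68 ± 0.0704 and 1.68 ± 0.0104 per kilobase of exon. Per kilobase of the longest coding transcript it was 1.235 ± 0.0517 and 1.256 ± 0.0051. Without division by length it was 0.994 ± 0.0404 and 1.007 ± 0.00406 (SD, n = 3). Whether Itgb1 exceeded that sum thus rests on the length used, and the groups overlapped on each scale. Shares of one sum are tied to each other, and transcript ratios say nothing of receptor at the surface.

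Among the beta subunits Itgb1 held 69.1 ± 1.63% of the reads per kilobase in DMSO and 65.3 ± 0.292% after STM2457, Itgb7 held 19.7 ± 0.960% and 21.1 ± 0.204%, and Itgb5 held 10.5 ± 0.511% and 13 ± 0.174% (SD, n = 3). With 3 libraries against 3, the exact 2-sided permutation test over libraries cannot give less than 0.10. It gave that smallest p for the shares of Itga5, Itga3, Itga7, Itgav, Itgb1, Itgb5 and Itgb7, and 0.6 for that of Itga6. Adjusted by Benjamini-Hochberg over the 15 shares tested, the smallest value was 0.15.

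**Figure D3:**
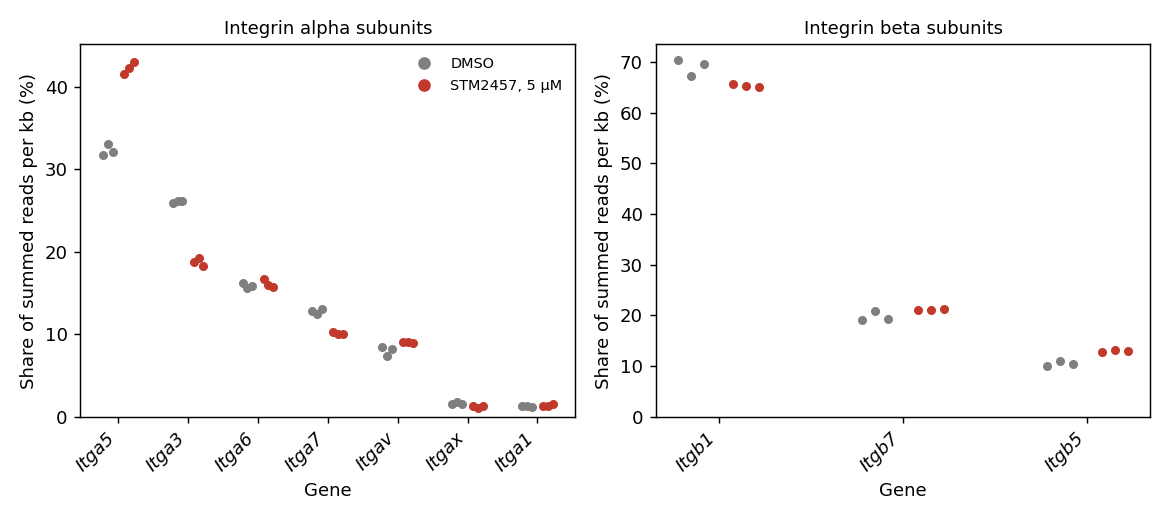
Share of each subunit in the summed normalised reads per kilobase of exon of all alpha subunits (left) and all beta subunits (right), in percent, for subunits with a share of at least 1%, with 1 point per library. The Itga5 points rise from 31.8 to 33.1% in DMSO to 41.5 to 43.1% after STM2457, and Itgb1 stays above 65% in every library.

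Among laminin chains, 1 of each kind held most of the reads. Lama5 held 99.9% of the alpha chain reads per kilobase in DMSO, Lamb1 79.8 ± 0.711% of the beta chain reads and Lamc1 98.4 ± 0.324% of the gamma chain reads (SD, n = 3). These 3 chains make up laminin-511, a widespread basement membrane laminin, and Lamb2 would replace Lamb1 in laminin-521. Per kilobase, Lamb1 and Lamc1 stood at 683 ± 26.1 and 648 ± 17.7 normalised reads in DMSO, and Lama5 at 217 ± 9.16 (SD, n = 3). On this scale the ratio of Lamb1 to Lama5 was 3.06 to 3.23 in the DMSO libraries and that of Lamc1 to Lama5 was 2.77 to 3.14. After STM2457 these ratios were 3.29 to 3.71 and 3.15 to 3.39, above the DMSO range in every library. Per kilobase of the longest coding transcript Lamb1 over Lama5 was 5.24 to 5.53 in DMSO and 5.64 to 6.36 after STM2457, and Lamc1 over Lama5 was 3.01 to 3.41 and 3.42 to 3.68.

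Lama5 had 2366, 2597 and 2468 reads in DMSO and 2189, 2270 and 2455 after STM2457, and the groups overlapped. It fell slightly, to 0.924 of the DMSO level (95% interval 0.867 to 0.984, limma adjusted p = 0.032). Leaving out any of 4 libraries ended that call, with adjusted p-values of 0.11 for DMSO replicate 2, 0.076 for DMSO replicate 3, 0.2 for STM2457 replicate 1 and 0.11 for STM2457 replicate 2. Lamb1 had 6647, 7125 and 6570 reads in DMSO and 7070, 7206 and 7034 after STM2457 (1.04-fold, 95% interval 0.988 to 1.10, limma adjusted p = 0.20). Lamc1 had 5394, 5230 and 5450 reads and then 5387, 5307 and 5617 (1.01-fold, interval 0.956 to 1.06, adjusted p = 0.82). The groups overlapped for both chains.

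Lamb2 had 1078, 1058 and 1016 reads in DMSO and 1003, 950 and 999 after STM2457. The groups did not overlap, and the difference missed the threshold (0.930 of DMSO, 95% interval 0.870 to 0.995, limma adjusted p = 0.064). Lama1 and Lama3 were listed at 0, Lamb3 had 2 reads in all, both in STM2457 replicate 2, Lama2 had 0 to 4 reads per library, Lama4 had 0 to 2 and Lamc3 had 4 to 13.

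The other genes of adhesion were taken from lists of known function. Over all tested genes 30.7% rose and 25.7% fell, and no list was tested against these shares. Of 26 tested genes for integrin activators and the adhesion scaffold, 13 rose and 2 fell, with a median fold of 1.08 beside 1.01 over all tested genes. Actn1, Flna, Apbb1ip and Zyx had the smallest adjusted p-values, from 3.6e-10 to 1.5e-06 by limma. The actin crosslinkers Actn1 and Flna rose 1.37-fold and 1.26-fold. The Rap1 effector Apbb1ip, which brings talin to integrins, rose 1.27-fold, and the adhesion scaffold gene Zyx rose 1.2-fold. Of the switches, Tln1 for talin and Fermt2 for kindlin-2 did not pass. Tln1 stood at 9606 ± 412 normalised reads with solvent and 10136 ± 11.9 with inhibitor (limma adjusted p = 0.08), and its groups did not overlap. Fermt2 measured 2897 ± 194 and 2912 ± 116 (adjusted p = 0.89; SD, n = 3). Fermt3, the kindlin of blood cells, fell from 23.3 ± 4.73 to 10.3 ± 5.48 normalised reads (n = 3, SD; adjusted p = 0.0027 by limma). Tln1, Fermt2 and Fermt3 were chosen after their values were seen.

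In adhesion signalling 10 of 23 tested genes rose and 2 fell (median fold 1.03), beside 30.7% and 25.7% of all tested genes. The 4 of smallest adjusted p sit on the path from focal adhesions to Rac: the scaffold genes Bcar1 (1.37-fold) and Git1 (1.30-fold) and the adaptor genes Crk (1.35-fold) and Crkl (1.42-fold), with limma adjusted p-values from 6.5e-10 to 2.4e-08. Genes for integrin inhibitors and trafficking split into 7 higher and 4 lower of 19, with a median fold of 1.03. Without STM2457 replicate 1 only 2 were lower. The small GTPase gene Arf6, which recycles integrins, rose 1.29-fold, and the integrin inhibitor gene Sharpin, the endocytic adaptor gene Numb and Clint1 rose 1.21-fold, 1.21-fold and 1.14-fold.

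Of the basement membrane partners of the laminins, 4 of 12 tested rose and 2 fell (median fold 1.06). Over all tested genes the shares were 30.7% and 25.7%. Hspg2 for perlecan rose 1.16-fold and Col4a2 1.13-fold, and Col18a1 fell to 0.798 and Ntn1 to 0.871 of the DMSO level. Without DMSO replicate 2, STM2457 replicate 2 or STM2457 replicate 3 only 2 rose, and without DMSO replicate 2 or STM2457 replicate 1 only 1 fell. Of 14 tested receptors for laminin other than integrins and their sugar-building enzymes, 5 rose and 2 fell. Among those that rose were Cd44 (1.23-fold), a hyaluronan receptor, and Sdc1 for syndecan-1 (1.18-fold). The list nevertheless summed to 86910 to 89594 normalised reads in DMSO and to only 81547 to 84170 after STM2457. Most of that sum was Rpsa, chosen after its value was seen. Rpsa fell from 66011 ± 1367 to 58163 ± 1089 normalised reads (SD, n = 3). Its fold was 0.881 (limma adjusted p = 9.9e-05). The median fold over the tested genes of this list was 1.06, so the lower sum does not stand for most of the list.

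Of 18 tested genes for other integrin ligands, 10 rose and 8 fell, beside 30.7% and 25.7% of all tested genes. Fn1, the gene of fibronectin, the ligand of alpha 5 beta 1, fell from 39885 ± 413 to 28362 ± 841 normalised reads (SD, n = 3), to 0.711 of the DMSO level (limma adjusted p = 3.1e-11). The 3 fibroblast markers named above also fell, and their part in this result was not tested. Spp1, the gene of osteopontin, an RGD ligand of alpha V integrins, fell to 0.624 (adjusted p = 1.7e-13). Tgfb1, whose latent form alpha V integrins bind, rose 1.60-fold, and Adam15, a membrane disintegrin, rose 1.42-fold. The largest rise in this list was that of Tnc for tenascin-C, chosen after its value was seen, from 77.4 ± 23.3 to 153 ± 11.7 normalised reads (SD, n = 3, 2.04-fold, limma adjusted p = 5.5e-06). The transcripts of the fibronectin receptor subunit Itga5 and of fibronectin itself thus moved in opposite directions.

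Tetraspanins and other lateral partners of integrins split into 5 higher and 6 lower of 16, beside 30.7% and 25.7% of all tested genes. Emp2 (0.782) and Bsg for basigin (0.799) fell, and Tspan4 (1.23-fold) and Plaur for the urokinase receptor (1.24-fold) rose. The largest fall in this list was that of Slc3a2, chosen after its value was seen, to 0.587 (limma adjusted p = 0.00038). Hemidesmosome partners had only 3 tested members, of which Plec (1.07-fold) and Cd151 (1.09-fold) rose and Dst did not pass (adjusted p = 0.17). Without STM2457 replicate 2 none of the 3 passed, and without STM2457 replicate 1 or 3, or DMSO replicate 2 or 3, only 1 rose. Among proteases and inhibitors that act on laminins and integrins, 7 of 13 rose and 0 fell (median fold 1.18). They included Mmp14, a membrane metalloprotease, at 1.44-fold, Furin, which cuts integrin alpha precursors, at 1.37-fold, and the inhibitor genes Timp1 and Timp2 at 1.2-fold and 1.23-fold.

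These counts depend on scaling to a degree. With each library centred on its upper quartile, which moved the median of all tested genes from 0.00 to -0.03 on the log2 scale, the whole table had 2819 genes higher and 4814 lower in place of 3868 and 3240. The activator list then had 10 higher and 4 lower, signalling 9 and 6, trafficking 5 and 6, basement membrane 2 and 2, and hemidesmosome partners 0 and 1. The ligands had 8 and 8, tetraspanins 4 and 7, laminin receptors other than integrins 5 and 2, and proteases 7 and 1. Among the integrins and laminins the same 4 genes were higher, and 9 were lower in place of 6.

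**Figure D4:**
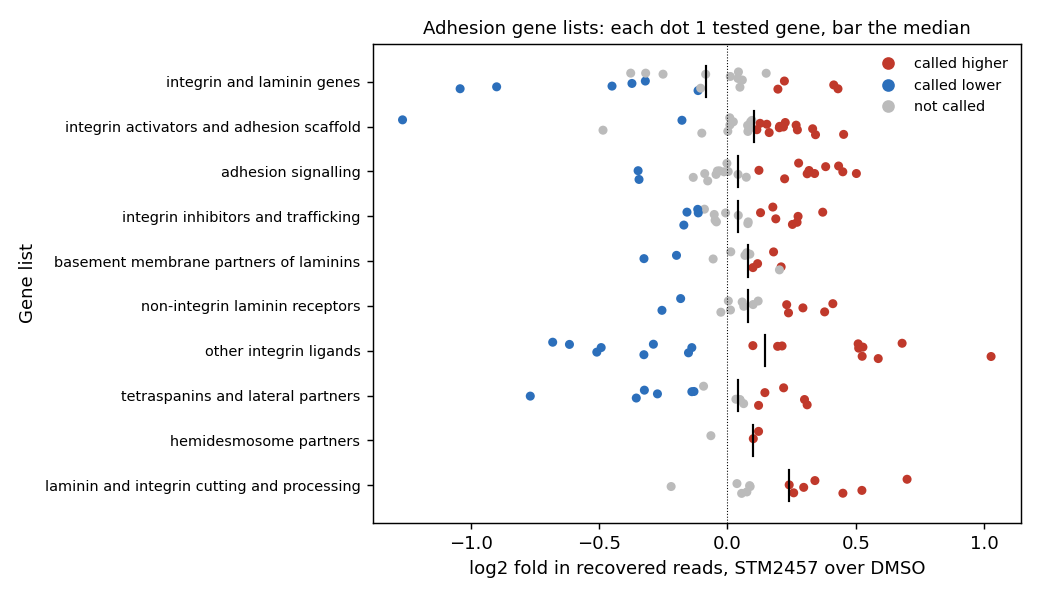
Log2 fold in recovered reads (STM2457 over DMSO) of each tested gene in the integrin and laminin set and in 9 adhesion lists, coloured by the limma call, with a bar at the median of each list. The integrin and laminin median lies at -0.09 and the protease and inhibitor median at 0.24, and the ligands run from Spp1 at -0.68 to Tnc at 1.03.

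METTL3 methylates adenosine in short sequence contexts of which GGACU is a common form. In the longest protein-coding transcript that GENCODE M21 gives each gene, the letters GGACT occur 1.04 times per kilobase at the median of 11013 tested genes with such a transcript, and 1.23 times at the median of the 21 tested members. Among the members that rose they occur 2.13 times per kilobase in Itgb5, 1.99 in Itgav, 1.83 in Itga5 and 1.12 in Itgb7. Among those that fell they occur 2.04 times in Itga2b, 1.78 in Itga10, 1.44 in Itga3, 1.24 in Itga7, 1.23 in Lama5 and 0.989 in Itgax. Members that did not pass the test ranged from 0.524 in Itgb1 to 2.69 in Itgb2, so the values of called and uncalled members overlap. A match in these letters is a description of the sequence, and methylation was not measured in these libraries.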

How the data were processed

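RNA was sequenced from LLC cells in 6 libraries, 3 with DMSO and 3 with 5 µM STM2457 for 46 h, grouped by their labels. The labels' protocols name TRIzol for total RNA and SMARTER mRNA-Seq for the libraries. HISAT2 2.2.1, featureCounts 2.0.1, FastQC 0.11.9, DESeq2 and build GRCm38 stand in the submitters' processing notes. For the annotation counted and the use of strand, no source used here gives a statement.

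The authors deposited log2 values per gene symbol. The transform is not stated. The values have the form of a regularised log2, in which each gene is shrunken towards its mean over libraries, so that differences on that scale are too small: at high counts 60.0% is kept. Its equations were inverted to recover reads, with the shrinkage penalty (60.2), the dispersion curve and the size factors (0.995 to 1.01) estimated from the values. Of values in genes with a mean under 500 reads, 98.8% came out whole to within 0.05 reads. From 500 to under 2000 reads 88.0% did, and from 2000 reads, where many of the integrins lie, 64.8%. All were rounded.

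The design assumed counts or, for normalised values, limma. As the table holds log2 values, limma 3.58.1 in R 4.3.3 (eBayes with trend and robust priors, statmod 1.5.0) was fitted with group as the only term to 12618 genes with a mean of at least 3.32, the log2 of 10 reads. P-values were adjusted by Benjamini-Hochberg over all of them, with a threshold of 0.05. Folds, their SE and 95% intervals come from limma-voom on the recovered reads. Both fits were tested on simulated data. Shares and ratios per kilobase used union exon lengths, with the longest coding transcript as an alternative chosen after seeing the data. Per-library values are given for called members and for subunits that complete a dimer or trimer, and up to 4 genes of smallest adjusted p are named from each adhesion list. Of the genes this takes in, 3 are counted in the totals but not reported here by name. The members and lists were chosen with earlier results of these data known. Alternatives were upper-quartile centring, no level filter, a filter at 50 reads, limma-voom, a replicate block, ordinary priors and leaving out each library.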

Additional observations from a re-analysis of the deposited data

How the results depend on the processing

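The 21 tested members were refitted under 12 alternatives each where they met the filter, 249 fits in all. Of these fits 234 kept their side of the threshold, 6 lost a call and 9 gained one. A call reversed direction in 0 of them, but some uncalled members changed sign. Under upper-quartile centring the log2 difference of Itgb1 went from 0.024 to -0.014 and that of Lamc1 from 0.006 to -0.031. The calls of Itga3, Itga5, Itga7, Itga10, Itga2b, Itgb5, Itgb7 and Itgav held in all of their fits, with a highest adjusted p of 0.047 for Itgav under upper-quartile centring. The call of Lama5 was lost in 5, up to 0.20, and that of Itgax in 1. Lamb2 (0.0032) and Itgae (0.022) were called lower under upper-quartile centring. Lamb1 was called higher without DMSO replicate 2 (0.035) and Itga1 without STM2457 replicate 1 (0.039). Leaving out each library gave 4 to 5 members higher and 4 to 7 lower, and 3402 to 3797 genes higher and 2704 to 3152 lower over the whole table. The difference in the share held by Itga5 ranged from 9.58 to 10.3 percentage points without a library, was 7.48 when reads were not divided by exon length, and was 8.27 per kilobase of the longest coding transcript, a setting chosen after seeing the data. The replicate numbers are shared between groups, but the deviations of same-numbered libraries correlated by only 0.01 to 0.05, so the numbers were not taken as pairs. With the replicate number as a block, 4 members were higher and 7 lower, and 3864 and 3226 genes over the whole table. Depth limits Itgb4, Itgb8, Itgae and Itgb2, all under 100 reads, and the 16 members that were not tested. The causes of these changes were not tested.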
